A study of Mus musculus with 140 samples.

Results

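The 10 chemokine genes Cxcl1, Cxcl2, Cxcl5, Cxcl12, Cx3cl1, Ccl2, Ccl3, Ccl4, Ccl5 and Ccl7 were chosen by gene name from the 34255 genes of the count table, and each name matched 1 row. Their RNA was followed in kidneys of mice with sepsis, of sham-operated mice and of healthy mice. Sepsis was modelled by cecal ligation and puncture (CLP), in which the cecum is tied off and pierced so that gut bacteria leak into the abdomen. Groups of 4 mice were examined at 4, 24 or 72 h after CLP and at 4, 24 or 72 h after a sham operation, and 4 healthy mice stood at 0 h. All 28 mice were male wild-type C57BL6/OlaHsd animals, and their ages are not given in the sources used here. From each mouse, laser microdissection gave separate samples of glomeruli, arterioles, post-capillary venules and peritubular capillaries, and a library of whole kidney was made without it, which gave 140 libraries. RNA was read by Lexogen QuantSeq, a method that counts transcripts from reads at their 3′ ends.

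Chemokines are small secreted proteins that guide leukocytes along gradients by binding receptors on the leukocyte surface. Those named CXC carry 1 residue between the first pair of conserved cysteines, those named CC carry none, and Cx3cl1 carries 3 and is made as a membrane-bound protein on endothelium and epithelium. Cxcl1, Cxcl2 and Cxcl5 bind Cxcr2 and draw neutrophils, Ccl2 and Ccl7 bind Ccr2 and draw monocytes, and Ccl3, Ccl4 and Ccl5 draw macrophages and T cells. Cxcl12 binds Cxcr4 and is made constitutively by stromal and endothelial cells, and Cx3cl1 binds Cx3cr1 on monocytes and macrophages. The inducible members are textbook targets of NF-kB, a transcription factor that binds kappa B sites.

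The members lie in small clusters of the mouse genome (build GRCm38, GENCODE M21), and all are protein-coding. On chromosome 5, Cxcl5 (ENSMUSG00000029371) spans 90759360 to 90761624, Cxcl1 (ENSMUSG00000029380) spans 90891241 to 90893115, and Cxcl2 (ENSMUSG00000058427) spans 90903871 to 90905938, all on the plus strand. On chromosome 11, the plus strand holds Ccl2 (ENSMUSG00000035385) at 82035571 to 82037453, Ccl7 (ENSMUSG00000035373) at 82045712 to 82047525 and Ccl4 (ENSMUSG00000018930) at 83662584 to 83664683. The minus strand of the same chromosome holds Ccl5 (ENSMUSG00000035042) at 83525778 to 83530518 and Ccl3 (ENSMUSG00000000982) at 83647844 to 83649355. Cxcl12 (ENSMUSG00000061353) lies apart on chromosome 6 at 117168535 to 117181367, and Cx3cl1 (ENSMUSG00000031778) on chromosome 8 at 94772009 to 94782427, both on the plus strand.

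Promoters of Cxcl1 and Cxcl2, which rose together at 4 h, and of Cxcl12, which did not rise, are printed for comparison as the 250 bases before the RefSeq start (GRCm38.p6). They lie on the plus strand at chr5:90890995-90891244, chr5:90903649-90903898 and chr6:117168285-117168534, in the order of the lines. Capitals mark the match to the kappa B consensus on both strands in Cxcl1 and Cxcl2, and CCGCCC on either strand in Cxcl12.
Cxcl1: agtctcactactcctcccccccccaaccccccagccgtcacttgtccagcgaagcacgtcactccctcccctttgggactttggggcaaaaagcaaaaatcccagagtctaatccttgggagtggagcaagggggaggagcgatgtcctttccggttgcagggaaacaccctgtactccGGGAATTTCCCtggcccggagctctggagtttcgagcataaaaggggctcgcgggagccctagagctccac
Cxcl2: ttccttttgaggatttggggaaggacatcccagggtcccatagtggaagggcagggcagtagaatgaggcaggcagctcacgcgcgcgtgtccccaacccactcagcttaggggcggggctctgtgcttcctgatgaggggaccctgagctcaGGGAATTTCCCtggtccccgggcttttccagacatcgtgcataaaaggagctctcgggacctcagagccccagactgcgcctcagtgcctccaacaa
Cxcl12: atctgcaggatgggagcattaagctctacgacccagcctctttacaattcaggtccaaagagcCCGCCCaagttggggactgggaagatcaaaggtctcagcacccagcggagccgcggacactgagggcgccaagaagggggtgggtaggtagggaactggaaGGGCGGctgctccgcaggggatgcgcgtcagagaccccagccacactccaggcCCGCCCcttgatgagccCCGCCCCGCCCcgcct
In these letters Cxcl1 and Cxcl2 shared the run gggaatttccctgg, which begins 71 bases before the start in Cxcl1 and 97 bases before it in Cxcl2. RefSeq promoters were matched for 5 of the 10 members, Cxcl1, Cxcl2, Cxcl12, Cx3cl1 and Ccl3, and Cxcl5, Ccl2, Ccl4, Ccl5 and Ccl7 were not matched. Windows of 250 bases before to 50 after the start were searched on both strands, in these members and in 32851 promoters of the table. The kappa B consensus was found in 2 of the 5 members, Cxcl1 and Cxcl2, and in 8.46% of all promoters, and in both members it matched on both strands with an overlap. Ccl3, whose RNA also rose at 4 h, had no match, nor did Cxcl12 and Cx3cl1. TGANTCA, the letters of AP-1 sites, was found in 0 of the 5 members and in 7.81% of promoters. CCGCCC, the core of GC boxes, was found in 3 of the 5 members and in 35.66% of promoters, with 5 matches in Cxcl12, of which the last 2 overlap, and 1 match each in Cxcl2 and Cx3cl1. A match describes the letters of a promoter and not a bound site.

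Each library held between 4.242 and 18.329 M counts, M standing for mega. Microdissected libraries of the later times held fewer genes with a count. Glomeruli had a median of 11717 genes in the 24 and 72 h libraries and 13800.5 in the healthy and 4 h libraries, venules 10788.5 and 12876.5, arterioles 8081 and 12611.5, peritubular capillaries 6982 and 12632.5, and whole kidney 18311 and 19396.5. Markers of glomeruli and arterioles were high in the libraries so labelled in healthy mice. There, 5 podocyte markers summed to 6096 to 7126 CPM in glomeruli and to at most 1670 CPM elsewhere. The 5 smooth muscle markers summed to 11790 to 30330 CPM in arterioles and to at most 762.5 CPM elsewhere. In peritubular capillaries, 10 endothelial markers summed to 434.4 to 1564 CPM and 6 proximal tubule markers to 59250 to 111600 CPM, so that these libraries held much tubule RNA. The spread between mice beyond counting error, as the common biological coefficient of variation, was 0.241 in whole kidney and between 1.4 in glomeruli and 1.94 in peritubular capillaries in the microdissected sets. Levels are given in CPM, counts scaled to a library total of 1 M. A gene passed a test when its Benjamini-Hochberg adjusted p over all genes tested, from edgeR's quasi-likelihood test, was under 0.05. In healthy mice, the endothelial markers Vwf, Pecam1, Egfl7 and Cdh5 passed as lower in peritubular capillaries than in the other microdissected compartments. In venules no endothelial marker passed, and the fibroblast markers Dcn, Col1a1 and Mgp and the tubule markers Slc34a1 and Slc5a2 passed as higher.

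In whole kidney 4 h after CLP, 6 of the 10 chemokines were higher than in sham mice, namely Cxcl1, Cxcl2, Cxcl5, Ccl2, Ccl3 and Ccl4, against 1.69% of the 14936 genes tested. The groups did not overlap for these 6 genes either, against 4.87% of genes that were higher in every CLP mouse. The median log2 fold change of the 10 members was 4.89, and that of all genes tested was 0.001. Ccl5, Ccl7, Cx3cl1 and Cxcl12 did not pass. In bulk RNA, a change in the number of cells of a type and a change in RNA per cell cannot be told apart. No member fell by the test, and Cxcl12 was lower in every CLP mouse than in every sham mouse, as were 2.87% of genes.

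**Figure D1:**
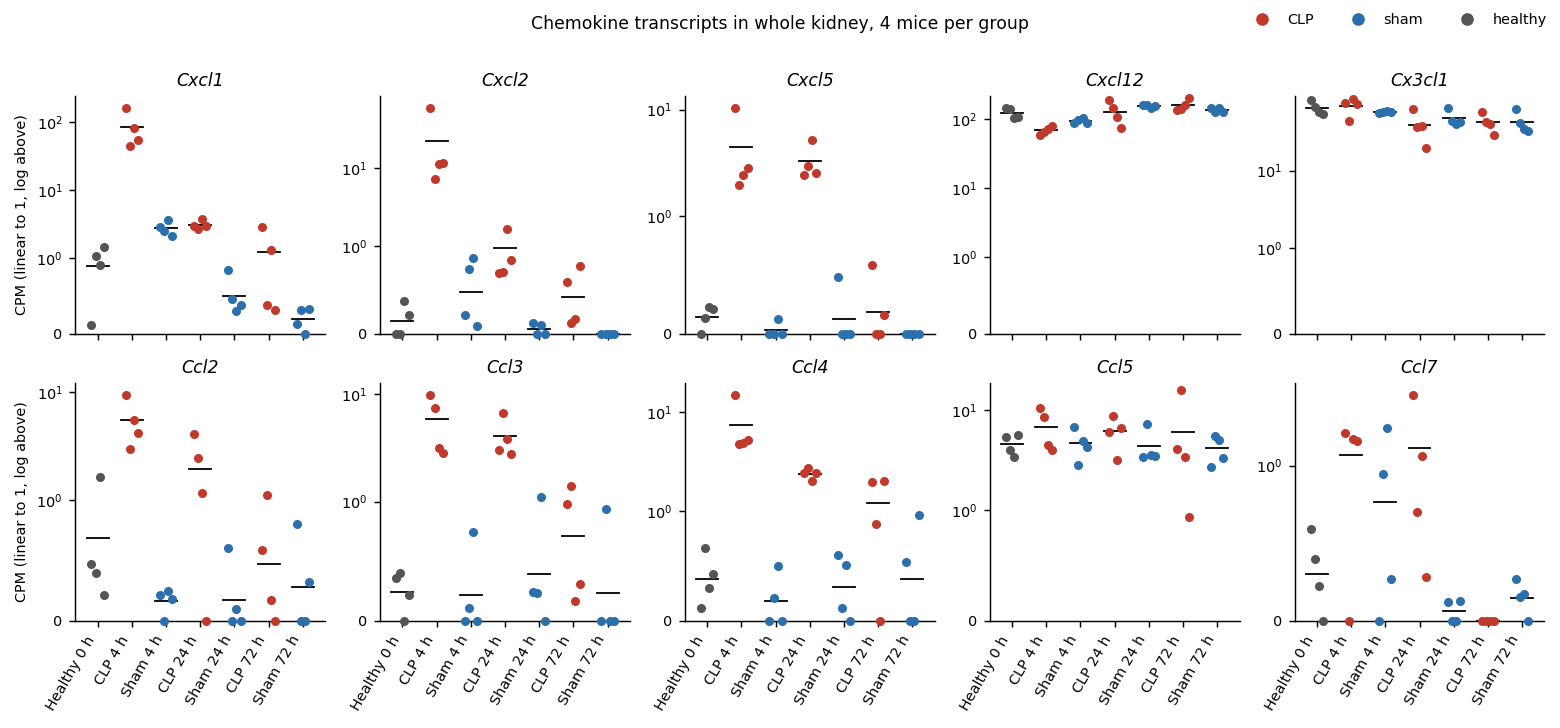
Levels of the 10 chemokines in whole kidney, in CPM, with 1 panel for each gene and 1 point for each mouse (4 mice in each group, CLP left of sham at 4, 24 and 72 h, and healthy mice at 0 h). The vertical axis is linear up to 1 CPM and logarithmic above it, and black lines are group means. Cxcl1 stands between 44.3 and 165 CPM in the CLP mice of 4 h and between 2.14 and 3.71 CPM in the sham mice of that time.

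Among the ligands of Cxcr2, Cxcl1 stood at 165, 44.3, 83.9 and 55.4 CPM in the CLP mice of 4 h, against 2.93, 2.52, 3.71 and 2.14 CPM in sham mice. Every CLP mouse was far above every sham mouse, and the log2 fold change was 4.95 ± 0.44 (SE, adjusted p = 6.78e-08). Cxcl2 stood at 58.4, 7.3, 11.3 and 11.5 CPM in the same CLP mice, against 0.217, 0.736, 0.866 and 0.0891 CPM in sham mice. The first CLP mouse was far above the other 3, and all 4 were above the sham mice, with a log2 fold change of 5.55 ± 0.71 (adjusted p = 2.95e-05). Without CLP replicate 1 it was 4.39 (adjusted p = 0.000166), and with the 8 libraries of 4 h fitted alone the call was lost (adjusted p = 0.0618). Cxcl5 stood at 10.4, 1.93, 2.44 and 2.84 CPM in CLP mice, against 0, 0, 0.124 and 0 CPM in sham mice. Its 186 counts in CLP mice and 1 count in sham mice gave a ratio of 158 (95% counting interval 28 to 6270, adjusted p = 0.000164), and all 4 CLP mice were above the sham mice. Without CLP replicate 1 the ratio was 94.5 (adjusted p = 0.00175), and without sham replicate 3, which held the only sham count, the mean was at least 14.6-fold higher than the floor of 3 counts per library (adjusted p = 0.000948).

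Of the Ccr2 ligands, Ccl2 stood at 9.48, 3.01, 5.57 and 4.16 CPM in the CLP mice of 4 h, against 0.217, 0, 0.247 and 0.178 CPM in sham mice. The groups were far apart, with a log2 fold change of 5.01 ± 1.00 (adjusted p = 0.00278). Ccl7, which lies next to Ccl2 on chromosome 11, did not move with it. It stood at 1.71, 0, 1.56 and 1.51 CPM in CLP mice, against 0, 0.947, 1.86 and 0.267 CPM in sham mice, and the groups overlapped (log2 fold change 0.68 ± 0.87, adjusted p = 0.935).

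Ccl3 and Ccl4, neighbouring genes known as the macrophage inflammatory proteins, both rose at 4 h. Ccl3 stood at 9.91, 7.51, 3.12 and 2.84 CPM in CLP mice, against 0, 0.105, 0.742 and 0 CPM in sham mice. The groups were apart, and the log2 fold change was 4.82 ± 0.94 (adjusted p = 0.0022), or 6.92 without sham replicate 3, the sham mouse with the highest level. Ccl4 stood at 14.9, 4.72, 4.88 and 5.17 CPM in CLP mice, against 0, 0.21, 0.495 and 0 CPM in sham mice. All CLP mice were again higher, with a log2 fold change of 5.39 ± 0.86 (adjusted p = 0.000198), which was 4.79 without CLP replicate 1 and 6.50 without sham replicate 3. Ccl5, a product of T cells and of late inflammation, stood at 10.4, 8.48, 4.49 and 3.97 CPM in CLP mice, against 6.83, 2.84, 4.95 and 4.28 CPM in sham mice. Its groups overlapped, and its log2 fold change of 0.53 ± 0.49 did not pass (adjusted p = 0.873).

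Neither of the constitutive members, Cxcl12 and Cx3cl1, passed at 4 h. Cxcl12 stood at 57.9, 65.3, 70.6 and 78.8 CPM in CLP mice, against 87.2, 95.9, 104 and 87.1 CPM in sham mice. Every CLP mouse lay below every sham mouse, but the log2 fold change of -0.45 ± 0.18 did not pass (adjusted p = 0.275). Cx3cl1 stood at 75.3, 43.6, 85.1 and 72.1 CPM in CLP mice, against 56.5, 56.9, 58.9 and 56.9 CPM in sham mice. The sham mice lay within the range of the CLP mice, and the log2 fold change was 0.27 ± 0.26 (adjusted p = 0.886).

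Among the CLP mice of 4 h, replicate 1 often stood highest. Its whole kidney levels come from 1 library, so the members are not separate observations, and no share over all genes is given. CLP replicate 1 had the highest level of the 4 mice for 7 of the 7 inducible members Cxcl1, Cxcl2, Cxcl5, Ccl2, Ccl3, Ccl4 and Ccl7 in whole kidney, and the highest Cxcl1 level in 4 of the 5 compartments, the exception being peritubular capillaries. The summed level of 12 neutrophil markers in whole kidney was also highest in this mouse, at 308.8 CPM against 195.2, 120.7 and 138.7 CPM in CLP replicates 2, 3 and 4. The calls of Cxcl1, Cxcl2, Cxcl5, Ccl2, Ccl3 and Ccl4 were all kept without this mouse.

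In whole kidney 24 h after CLP, 6 of the 10 chemokines were higher than in sham mice, which were Cxcl1, Cxcl5, Ccl2, Ccl3, Ccl4 and Ccl7, against 3.04% of genes tested. For 6 members, Cxcl1, Cxcl2, Cxcl5, Ccl3, Ccl4 and Ccl7, every CLP mouse was above every sham mouse, against 4.12% of genes. The median log2 fold change of the members was 3.06, and that of all genes was 0.02. Ccl7 was thus called at 24 h and not at 4 h, and Cxcl2 the reverse, but no member's CLP effect differed between these times in the test of that difference.

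Cxcl1 stood at 3, 2.69, 3.83 and 2.94 CPM in the CLP mice of 24 h, against 0.842, 0.463, 0.303 and 0.384 CPM in sham mice. The 4 CLP mice were close together and above the sham mice, with a log2 fold change of 2.62 ± 0.60 (adjusted p = 0.00733). Cxcl2 stood at 0.691, 0.703, 1.67 and 0.841 CPM in CLP mice, against 0.12, 0, 0.101 and 0 CPM in sham mice. All CLP mice were higher, but 28 counts against 2 counts, a ratio of 16 (95% counting interval 4.03 to 139), did not pass (adjusted p = 0.06), whereas DESeq2 called the gene (adjusted p = 0.0302). Cxcl5 stood at 2.42, 2.93, 5.17 and 2.52 CPM in CLP mice, against 0.481, 0, 0 and 0 CPM in sham mice. The groups were apart, and the log2 fold change of 4.63 ± 0.90 passed (adjusted p = 0.00129). The call was kept without sham replicate 1, the mouse that held all 4 of the sham counts (adjusted p = 0.000441).

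Among the CC chemokines at 24 h, Ccl2 stood at 4.15, 2.46, 1.17 and 0 CPM in CLP mice, against 0.601, 0, 0.101 and 0 CPM in sham mice. A CLP mouse without a count made the groups overlap, and the log2 fold change of 3.41 ± 1.02 passed narrowly (adjusted p = 0.0458). It was 2.73 without CLP replicate 1 and 5.27 without sham replicate 1. It missed the threshold without CLP replicates 1, 2 or 3, without sham replicates 2, 3 or 4, or without the filter on low counts (adjusted p up to 0.143). Ccl7 stood at 3.23, 0.703, 1.17 and 0.28 CPM in CLP mice, against 0.12, 0, 0 and 0.128 CPM in sham mice. Its 43 counts against 2 counts gave a ratio of 24.6 (95% counting interval 6.4 to 209, adjusted p = 0.038), which missed the threshold without CLP replicates 1 or 3 or any 1 of the 4 sham mice (adjusted p up to 0.152). The ratio was 12 without CLP replicate 1, 37.4 without sham replicate 1 and 38.1 without sham replicate 4.

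Ccl3 stood at 3, 6.68, 3.83 and 2.8 CPM in the CLP mice of 24 h, against 0.241, 0.231, 1.11 and 0 CPM in sham mice. All CLP mice were higher, with a log2 fold change of 3.25 ± 0.85 (adjusted p = 0.0189), which was 4.55 without sham replicate 3 and lost its call without CLP replicate 2 or sham replicates 1, 2 or 4 (adjusted p up to 0.0706). Ccl4 stood at 2.42, 2.69, 2 and 2.38 CPM in CLP mice, against 0.601, 0.116, 0.505 and 0 CPM in sham mice. The CLP mice were close together and above the sham mice (log2 fold change 2.87 ± 0.81, adjusted p = 0.0305), and the gene missed the threshold without CLP replicates 2 or 4 or sham replicates 2, 3 or 4, or in a fit of the 24 and 72 h libraries alone (adjusted p up to 0.102). Ccl5 stood at 5.99, 8.79, 3.17 and 6.59 CPM in CLP mice, against 3.37, 7.29, 3.53 and 3.46 CPM in sham mice, with overlapping groups and a log2 fold change of 0.49 ± 0.50 (adjusted p = 0.724).

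Cxcl12 varied more between the CLP mice of 24 h, at 185, 142, 106 and 74.3 CPM, than between sham mice, at 160, 157, 143 and 154 CPM. The sham mice lay within the range of the CLP mice (log2 fold change -0.28 ± 0.18, adjusted p = 0.484). Cx3cl1 stood at 63.7, 36.2, 37.8 and 19.5 CPM in CLP mice and at 63.9, 43.6, 40.6 and 42.6 CPM in sham mice, with overlapping groups (-0.27 ± 0.27 on the log2 scale, adjusted p = 0.705).

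At 72 h none of the 10 members passed in whole kidney, against 3.89% of genes tested. At an unadjusted p under 0.05 there were 2 of 10 members and 2067 of 14936 genes, and DESeq2 called 1 member, Cxcl1 (adjusted p = 0.041). Cxcl1 stood at 2.93, 0.377, 1.34 and 0.31 CPM in CLP mice, against 0.134, 0.311, 0 and 0.322 CPM in sham mice. The lowest CLP mouse was just below the highest sham mice, and the log2 fold change was 2.39 ± 0.88 (adjusted p = 0.167). Cxcl2 stood at 0.586, 0.126, 0.168 and 0.776 CPM in CLP mice and had no count in the 4 sham mice, the only member whose groups were apart, against 4.71% of genes higher in every CLP mouse. Its 10 counts in CLP mice are under what a count of 0 allows in 4 libraries, 3 counts in each, so no fold is given. The others, Cxcl5, Ccl2, Ccl3, Ccl4, Ccl5, Cxcl12 and Cx3cl1, overlapped, and Ccl7 had no count in the CLP mice and 4 counts in the sham mice. The median log2 fold change of the members was 1.08, against 0.03 for all genes.

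**Figure D2:**
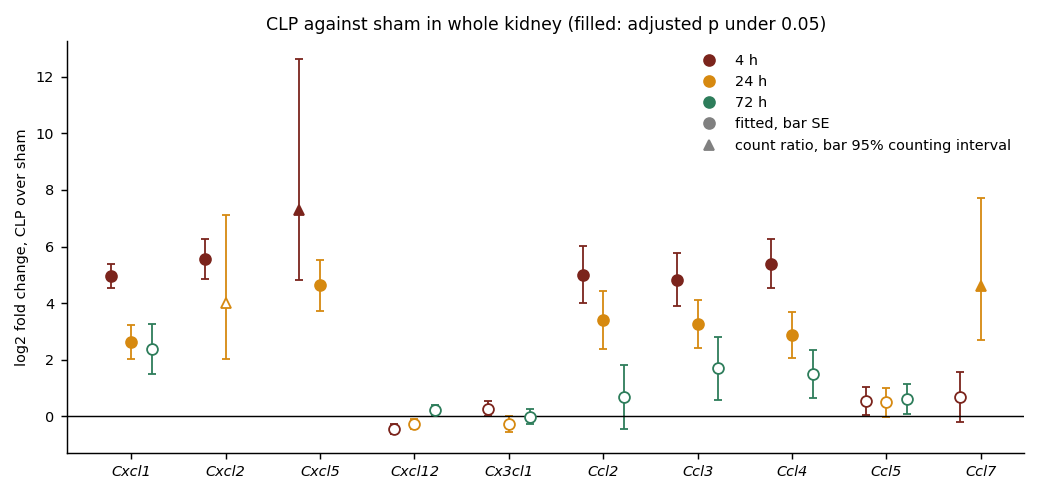
Difference between CLP and sham mice in whole kidney for each chemokine at 4, 24 and 72 h, on the log2 scale. Circles are fitted log2 fold changes with their SE, triangles are log2 ratios of counts with 95% counting intervals where the sham mice held 1 to 3 counts, filled symbols passed the test (adjusted p under 0.05), and no point is drawn where a group had no count. At 4 h Cxcl1 stands at 4.95 and Ccl4 at 5.39, while Cxcl12, Cx3cl1 and Ccl5 stay between -0.45 and 0.61 at all 3 times.

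Whether the CLP effect differed between times was tested in whole kidney, and no member passed. This was 0 of 10 for 24 h against 4 h (1.84% of genes called), 0 of 10 for 72 h against 4 h (2.52%) and 0 of 10 for 72 h against 24 h (0.509%), with 2, 3 and 1 members, and 1729, 1904 and 1237 of 14936 genes, at an unadjusted p under 0.05. The log2 effect of Cxcl1 was lower by 2.34 at 24 h than at 4 h (adjusted p = 0.196), that of Ccl4 lower by 3.92 at 72 h than at 4 h (adjusted p = 0.104), and that of Ccl7 higher by 3.56 at 24 h than at 4 h (adjusted p = 0.338). Ccl4 at 72 h against 4 h was called without the filter on low counts (adjusted p = 0.0247). Among the CLP groups, the mean of Cxcl1 was 87.2 ± 54.6 CPM at 4 h, 3.12 ± 0.496 CPM at 24 h and 1.24 ± 1.22 CPM at 72 h (SD, n = 4 each), and the ranges of 4 and 24 h did not meet.

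Sham surgery was set against healthy mice in whole kidney, and 0 of 10 members passed at 4 h (0.937% of genes called), at 24 h (6.41%) and at 72 h (8.44%), with 2, 0 and 2 members, and 1364, 3742 and 4031 of 14936 genes, at an unadjusted p under 0.05. Cxcl1 averaged 2.83 ± 0.673 CPM in the sham mice of 4 h and 0.892 ± 0.570 CPM in healthy mice (SD, n = 4 each). It was the 1 member higher in every sham mouse than in every healthy mouse, as 4.27% of genes were, with a log2 fold change of 1.62 ± 0.53 (adjusted p = 0.2). Cxcl12 averaged 93.5 ± 7.94 CPM in the sham mice of 4 h, against 122.6 ± 20.7 CPM in healthy mice, whose individual levels were 144, 137, 104 and 105 CPM. The sham level of 104 CPM in replicate 3 was just under the lowest healthy mouse, 2.51% of genes were lower without overlap, and the log2 fold change of -0.39 ± 0.18 did not pass (adjusted p = 0.479). Of the 7 groups, Cxcl12 had its lowest mean in the CLP mice of 4 h (68.1 ± 8.83 CPM, SD, n = 4) and its next lowest in the sham mice of 4 h. Cx3cl1 averaged 42.8 ± 13.8 CPM in the sham mice of 72 h and 65.5 ± 12.5 CPM in healthy mice, with a log2 fold change of -0.61 ± 0.27 (adjusted p = 0.14).

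The 7 groups can be ordered by their mean level in whole kidney. The CLP mice of 4 h had the highest mean for 8 of the 10 members, Ccl7 was highest in the CLP mice of 24 h (1.34 ± 1.31 CPM) and Cxcl12 in the CLP mice of 72 h (158 ± 30.0 CPM, SD, n = 4 each). For Cxcl1 the order was CLP 4 h, CLP 24 h, sham 4 h, CLP 72 h, healthy, sham 24 h and sham 72 h. The first place was apart from all others, the CLP mice of 24 h overlapped with the sham mice of 4 h, and the last 4 places overlapped with their neighbours. For Ccl5 all 7 means lay between 4.12 and 6.85 CPM and each group overlapped with its neighbours.

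Immune cell markers were read in the same libraries, and their changes did not all follow those of the chemokines. At 4, 24 and 72 h, 1.69%, 3.04% and 1.74% of all genes rose in whole kidney. Of 12 neutrophil markers, 8 were tested there, and 7 rose at 4 h, 6 at 24 h and 8 at 72 h. Their summed level was 120.7 to 308.8 CPM in the CLP mice of 4 h against 13.9 to 30.4 CPM in sham mice, 287.2 to 730.2 CPM against 11.2 to 18.2 CPM at 24 h, and 256.5 to 558.9 CPM against 5.69 to 10.1 CPM at 72 h. Lcn2 alone averaged 75.1 CPM at 4 h, 344.8 CPM at 24 h and 55.9 CPM at 72 h in these CLP mice. In sham mice it averaged 4.47, 3.97 and 3.33 CPM. This 1 gene therefore made up most of the mean sum of CLP mice at 24 h, but not at 4 or 72 h. Elane, an enzyme of early neutrophil granules, was at 0 in all CLP and sham mice of 4 h, and Ngp, Ly6g, Camp, Cd177 and Elane were at 0 in all sham mice of 24 and 72 h. The summed neutrophil level thus stayed high at 72 h, when none of the 10 members passed. Of 10 monocyte and macrophage markers, none of which was at 0 in a whole group, 1 rose at 4 h, 6 at 24 h and 7 at 72 h, with sums of 185 to 221.2 CPM in CLP mice against 150.1 to 186.8 CPM in sham mice at 4 h and of 476.2 to 691.4 CPM against 176.6 to 229.8 CPM at 72 h. Of the T and NK cell markers, 6 were tested and none was called at any time. The part of leukocyte number in the chemokine levels was not tested.

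The 4 microdissected compartments were examined next, where the inducible members were high in CLP mice at 4 h and where very few counts stood behind the control values. In 32 libraries of healthy mice and sham mice of 4 h, the 7 inducible members gave 224 values, of which 117 were 0, 82 were 1 to 3 counts and 25 were above 3 counts. In 32 libraries of the sham mice of 24 and 72 h, 220 of 224 values were 0, none was 1 to 3 counts, and 4 were above 3 counts. Small counts were thus frequent in the earlier control libraries and did not occur in the later ones, which also held fewer genes with a count, and the cause was not tested.

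The 7 inducible members are those called in whole kidney of the same mice at 4 or 24 h. A higher count in CLP mice is in part given by that choice, and no share over all genes is given. Ccl5, outside the 7, was above 3 counts in 5, 1 and 6 of 8 CLP libraries of 24 and 72 h in glomeruli, arterioles and venules. In sham libraries it was so in 6, 3 and 5 of 8. At 4 h it was so in 4, 4 and 4 of 4 CLP libraries and in 4, 3 and 3 of 4 sham libraries. Counted as values above 3 counts, of 28 in each group (7 inducible members in 4 mice), detection in glomeruli was 19 in CLP and 5 in sham mice at 4 h, 16 and 0 at 24 h, and 8 and 1 at 72 h. In arterioles it was 14 and 1 at 4 h, 3 and 0 at 24 h, and 1 and 1 at 72 h. In post-capillary venules it was 20 and 2 at 4 h, 10 and 2 at 24 h, and 1 and 0 at 72 h. In peritubular capillaries it was 9 and 1 at 4 h and 0 and 0 at both later times, when the 16 libraries held no count of any inducible member or of Ccl5. For comparison, whole kidney gave 27 and 10 at 4 h, 26 and 7 at 24 h, and 9 and 4 at 72 h, and healthy mice gave 10 in whole kidney, 9 in venules, 5 in glomeruli, 1 in arterioles and 1 in peritubular capillaries.

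**Figure D3:**
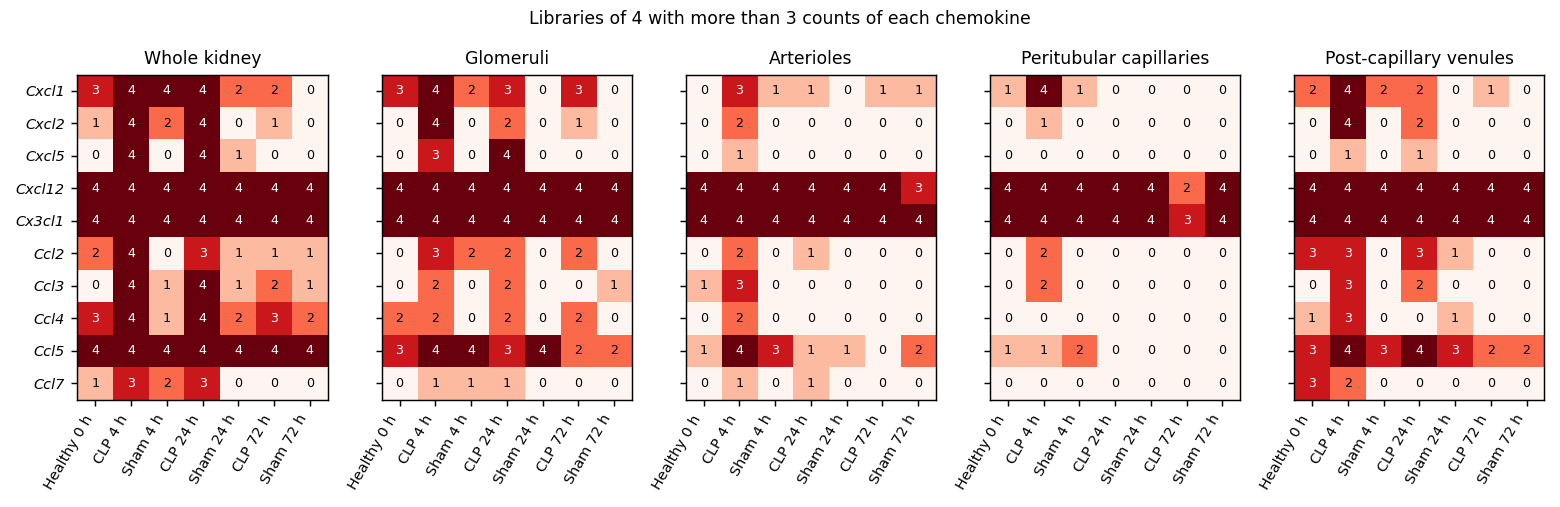
Number of libraries, of 4 in each group, with more than 3 counts of each of the 10 chemokines, for 5 compartments and 7 groups (CLP and sham at 4, 24 and 72 h, and healthy mice at 0 h). Darker cells hold more libraries. Cxcl12 and Cx3cl1 are detected in nearly all groups. The inducible members, which are those called in whole kidney at 4 or 24 h, are detected mainly after CLP, and none of them in peritubular capillaries at 24 or 72 h.

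In glomeruli, the capillary tufts that filter blood, Cxcl1 had 4927, 707, 668 and 490 counts in the CLP mice of 4 h, against 1, 2, 25 and 4 counts in sham mice, which is 515, 97.3, 93.9 and 67.1 CPM against 0.145, 0.156, 3.43 and 0.460 CPM. Every CLP mouse was far above every sham mouse, and the first CLP mouse was far above the other 3. The log2 fold change of 7.53 ± 2.08 did not pass over all genes (unadjusted p = 0.00153, adjusted p = 0.381). Cxcl2 was as clearly apart, at 279, 48.0, 69.3 and 21.1 CPM in CLP mice against 0.291, 0.0781, 0.137 and 0.230 CPM in sham mice (log2 fold change 9.07 ± 2.39, adjusted p = 0.21). Cxcl5 had 555, 172, 0 and 195 counts in CLP mice and none in sham mice, a mean at least 75.9-fold higher than the floor, or 47.1-fold without CLP replicate 1. Ccl2 had 368, 19, 71 and 0 counts in CLP mice against 1, 0, 10 and 35 counts in sham mice, and Ccl3 had 949, 208, 0 and 1 against 1, 1, 3 and 0, both with overlap.

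In total 0 of the 9 members tested in glomeruli passed at 4 h, against 0.11% of the 14586 genes tested, and 0 at 24 h (0.137%) and 0 at 72 h (0.0343%). At an unadjusted p under 0.05 there were 5 members of 772 genes at 4 h, 7 of 1803 at 24 h and 5 of 1498 at 72 h, and DESeq2 called 3, 5 and 3 members, against 2.13%, 6.93% and 6.41% of the genes it tested. These were higher except Cxcl12 at 24 h and Ccl3 at 72 h, which were lower, Ccl3 through 78 counts in 1 sham library. At 4 h, 2 members, Cxcl1 and Cxcl2, were higher in every CLP mouse, as 3.02% of genes were. In data simulated on the 28 glomerular libraries, changes were placed in the CLP mice of 4 h. This test recovered 25 of 100 genes changed 16-fold and 6 of 100 changed 4-fold, against 98 and 92 of 100 in whole kidney. The changed genes lay above a set mean count, had 1 common level in all other groups, and were raised or lowered. These shares therefore do not measure the power for members with few or no counts in sham mice.

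Glomeruli of the CLP mice of 24 h held 98, 244, 0 and 2787 counts of Cxcl1, 3, 129, 2 and 551 counts of Cxcl2, and 136, 50, 287 and 569 counts of Cxcl5, while the sham mice held none of the 3. Cxcl2 and Cxcl5 were present in all 4 CLP mice, the 2 members higher in every CLP mouse (1.44% of genes), and Cxcl1 in 3 of 4. The means were at least 294-fold, 68.6-fold and 116-fold higher than the floor for Cxcl1, Cxcl2 and Cxcl5, with adjusted p of 0.0692, 0.0905 and 0.165. Without CLP replicate 4, which held most of the Cxcl1 and Cxcl2 counts, these 2 bounds were 55.5-fold and 25-fold. Ccl3 was found in CLP replicates 2 and 4 alone, at 319 and 13 counts. At 72 h Cxcl1 had 68, 140, 0 and 5 counts in CLP mice and none in sham mice, at least 15.1-fold higher than the floor (adjusted p = 0.396). The summed level of the 12 neutrophil markers in glomeruli was 1587 to 3178 CPM in CLP mice against 46.4 to 231.4 CPM in sham mice at 4 h, 1094 to 2722 against 42.1 to 229.7 CPM at 24 h, and 3745 to 5760 against 9.82 to 126.5 CPM at 72 h. Elane was at 0 in both groups of 4 h and both groups of 24 h, and the part of leukocytes in the glomerular levels was not tested.

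**Figure D4:**
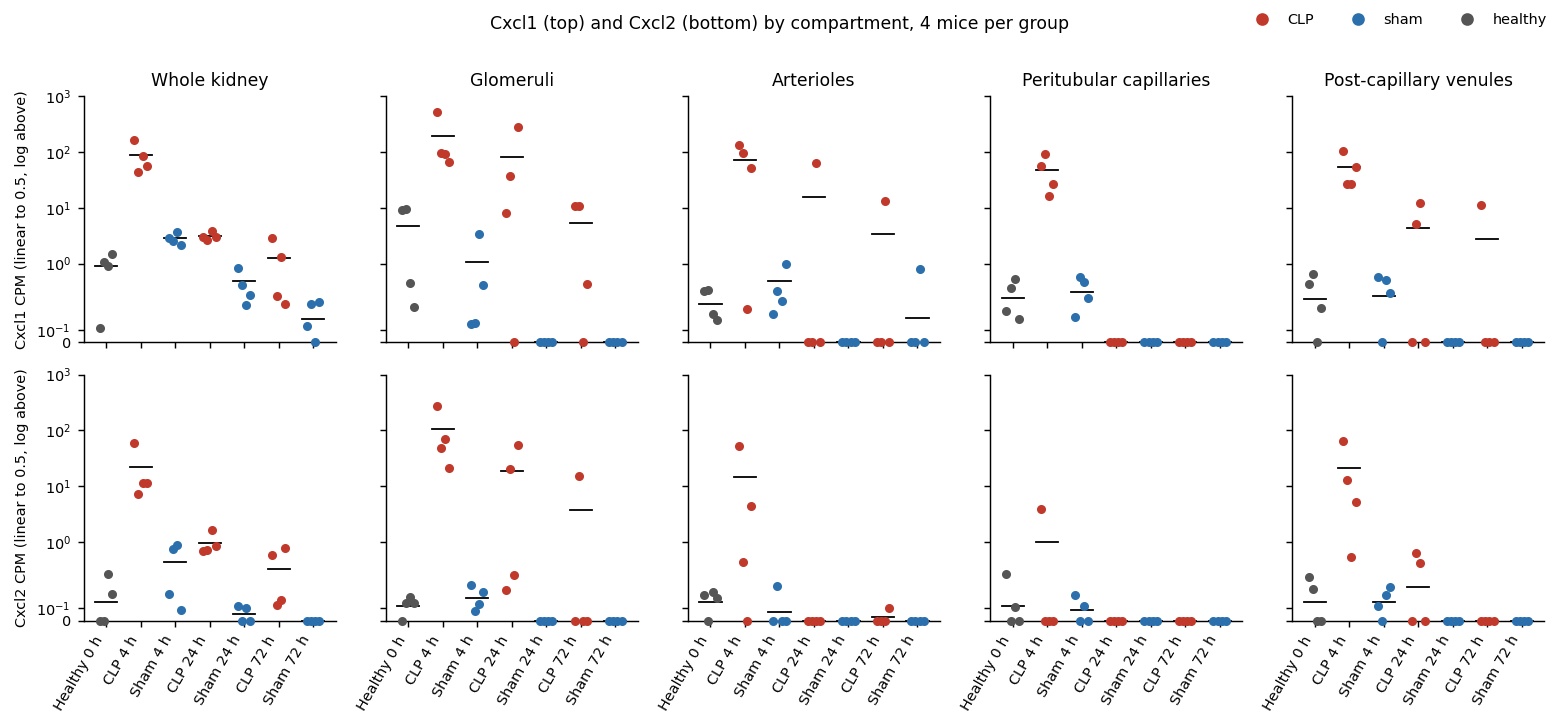
Cxcl1 (top) and Cxcl2 (bottom) levels in whole kidney and the 4 microdissected compartments, in CPM, with 1 point for each mouse, healthy mice at 0 h on the left and CLP left of sham at 4, 24 and 72 h. The axis is linear up to 0.5 CPM and logarithmic above it, and black lines are means of 4 mice. In glomeruli at 4 h the CLP mice stand between 67.1 and 515 CPM of Cxcl1 and the sham mice between 0.145 and 3.43 CPM.

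In arterioles, the small vessels that feed the glomeruli, Cxcl1 had 1237, 627, 2 and 486 counts in the CLP mice of 4 h, against 3, 3, 2 and 8 counts in sham mice. CLP replicate 3 was as low as the sham mice, and the log2 fold change of 7.14 ± 3.63 had an adjusted p of 1. Cxcl5 was found at 314 counts in replicate 1 alone and Ccl7 at 163 counts in replicate 2 alone, while Cxcl2 had 481, 3, 0 and 41 counts, Ccl2 434, 65, 1 and 0, and Ccl4 0, 18, 0 and 173 counts, and Ccl3 had more than 3 counts in 3 of 4 mice. The summed level of the 12 neutrophil markers in arterioles was 358.8, 151.3, 42.2 and 387 CPM in these CLP mice, against 3.31, 3.74, 23.3 and 104.6 CPM in sham mice. Ly6g, Csf3r and Elane were at 0 in the CLP mice and Ly6g, Cd177 and Elane in the sham mice, and the part of leukocytes in the arteriolar levels was not tested. None of the 4 members tested passed at 4 h (0.00821% of the 12183 genes tested), 24 h (0.0164%) or 72 h (0%), and the unadjusted p was under 0.05 for 0, 1 and 2 members and for 418, 1890 and 2100 genes. DESeq2 called 0 members at 4 h, 1 as higher at 24 h and 1 as lower at 72 h, which was Ccl5, against 1.21%, 13.2% and 15% of the genes it tested. Cxcl1 was found in 1 CLP mouse at 24 h (953 counts) and in 1 CLP mouse at 72 h (156 counts).

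Post-capillary venules, where leukocytes are known to leave the blood, held 747, 187, 201 and 356 counts of Cxcl1 in the CLP mice of 4 h, against 5, 0, 5 and 3 counts in sham mice. No sham mouse reached a CLP mouse, as in 1.84% of genes, and the log2 fold change of 7.09 ± 3.05 did not pass (adjusted p = 0.851). Ccl2 had 291, 35, 86 and 0 counts in CLP mice and 1, 0, 0 and 0 counts in sham mice, a ratio of 460 (95% counting interval 82 to 18200), or 180 without CLP replicate 1. Without sham replicate 1, which held the 1 sham count, the mean was at least 35-fold higher than the floor. Ccl4 had 236, 72, 39 and 0 counts and Ccl7 had 65, 61, 0 and 1 counts in CLP mice and neither had a count in sham mice, at least 30.8-fold and 11.4-fold higher than the floor, or 13.1-fold and 7.47-fold without CLP replicate 1. Ccl7 was also present in venules of healthy mice, at 17, 222, 8 and 0 counts, so its range there included that of the CLP mice.

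In venules, 0 of the 8 members tested passed at 4 h (0% of the 13530 genes), 24 h (0.0813%) or 72 h (0.0443%), with 5, 3 and 1 members, and 768, 1385 and 1715 genes, at an unadjusted p under 0.05. DESeq2 called 1, 2 and 1 members, against 2.72%, 6.98% and 9.27% of the genes it tested. These were higher except Ccl4 at 24 h, which was lower and rested on 137 counts in 1 sham library. At 24 h Ccl3 had 455, 0, 179 and 0 counts in CLP mice and none in sham mice, at least 61.5-fold higher than the floor (22.5-fold without CLP replicate 1), and Cxcl1 had 0, 57, 131 and 0 counts. Cxcl12 was lower in every CLP mouse of 4 h, at 162, 108, 127 and 79.2 CPM against 283, 223, 199 and 248 CPM in sham mice, as 1.54% of genes were. Its log2 fold change of -1.0 ± 0.45 did not pass (adjusted p = 0.851). The neutrophil markers in venules summed to 1107, 651, 208.4 and 164.2 CPM in the CLP mice of 4 h, against 41.4, 84.4, 1.86 and 3.89 CPM in sham mice. Ly6g, Camp and Elane were at 0 in the CLP mice and Csf3r, Cd177 and Elane in the sham mice, and what part leukocytes had in the venular levels was not tested.

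Peritubular capillaries, which surround the tubules, held 490, 540, 79 and 283 counts of Cxcl1 in the CLP mice of 4 h, against 1, 3, 4 and 3 counts in sham mice. The groups were apart, as in 2.14% of genes, with a log2 fold change of 6.84 ± 3.50 and an adjusted p of 1. Ccl3 had 1, 126, 2 and 82 counts in CLP mice and 1 count in all sham mice, and Cxcl2 had 34 counts in CLP replicate 1 alone. None of the 3 members tested, Cxcl1, Cxcl12 and Cx3cl1, passed at 4 h (0%), 24 h (0.051%) or 72 h (22.3% of the 11772 genes), and DESeq2 called none. The unadjusted p was under 0.05 for none of them and for 384, 2267 and 4344 genes. At 72 h the CLP libraries held 2949, 5595, 3281 and 4020 genes with a count, against 9816, 7681, 7137 and 8321 in sham libraries. The median log2 fold change of all genes tested was then -1.28. This lower detection and an effect of CLP cannot be told apart at 72 h. The summed level of the neutrophil markers at 4 h was 370.4, 107.4, 168.8 and 8.70 CPM in CLP mice, against 3.71, 28.3, 8.76 and 4.88 CPM in sham mice. Ly6g, Mmp8, Csf3r and Elane were at 0 in the CLP mice and Ly6g, Camp, Ltf, Csf3r, Cd177 and Elane in the sham mice, and the part of leukocytes was not tested here.

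An interaction test asked whether the 4 microdissected compartments responded unequally to CLP, and no member passed. This was 0 of 10 at 4 h (0.021% of 14272 genes called), 0 of 7 at 24 h (0.161% of 13635) and 0 of 4 at 72 h (1.48% of 13475), and no member had an unadjusted p under 0.05. Differences between the compartments in which mice and how many members were detected are therefore given as counts, without a test between them.

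When the counts of the 4 microdissected compartments of each mouse were added, Cxcl1 passed at each time, 1 of 10 members (0.0832% of the 16834 genes higher at 4 h, 0.238% at 24 h and 0.226% at 72 h). At 4 h it stood at 197, 72.1, 32.8 and 43.9 CPM in CLP mice, against 0.281, 0.225, 1.04 and 0.506 CPM in sham mice, with a log2 fold change of 7.39 ± 1.43 (adjusted p = 0.0182) that lost its call without CLP replicate 1 or any 1 of the 4 sham mice (adjusted p up to 0.322). It was 6.57 without CLP replicate 1 and 7.97 without sham replicate 3. At 24 h it stood at 2.22, 6.88, 30.8 and 73.7 CPM in CLP mice and had no count in the 16 libraries of sham mice. This call (adjusted p = 9.16e-05) was kept in 11 of 11 alternatives, with an adjusted p of 0.000459 without CLP replicate 4, the mouse with the highest level. At 72 h the level was 5.34, 3.31, 4.83 and 0.124 CPM in CLP mice against 0, 0, 0.224 and 0 CPM in sham mice. The groups overlapped through CLP replicate 4, and the call (5.90 ± 1.38, adjusted p = 0.0357) was lost without CLP replicates 1 or 3 or sham replicates 1, 2 or 4 (adjusted p up to 0.13). It was kept without sham replicate 3, the sham mouse that held the only sham counts (adjusted p = 0.00573). No fold change is given for that fit, as its sham mice held no count.

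In these sums, Cxcl1, Cxcl2, Ccl3 and Ccl4 were higher in every CLP mouse at 4 h (2.93% of genes), and Cxcl1, Cxcl2, Cxcl5, Ccl2 and Ccl3 were at 24 h (2.3% of genes). Cxcl12 was lower in every CLP mouse at 4 h (2% of genes), at 53.2, 90.7, 65.9 and 70.0 CPM against 162, 108, 104 and 116 CPM in sham mice, with a log2 fold change of -0.81 ± 0.35 (adjusted p = 0.9). Cxcl12 was thus lower without overlap at 4 h in whole kidney, in venules and in the sum, without a passed test in any of them. The sum includes the venule counts and all these libraries come from the same mice, so these are not separate observations. In glomeruli, arterioles and peritubular capillaries its groups of 4 h overlapped. Cx3cl1 was lower in every CLP mouse at 72 h (2.07% of genes), at 52.2, 67.9, 69.2 and 85.2 CPM against 154.7, 104.3, 112 and 98.8 CPM in sham mice (-0.78 ± 0.29 on the log2 scale, adjusted p = 0.246).

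Cxcl12 and Cx3cl1 were detected in nearly every microdissected library, but their levels varied widely between mice of a group. In glomeruli at 24 h, Cxcl12 stood at 85.2, 34.0, 41.4 and 2.69 CPM in CLP mice, against 83.4, 211, 149 and 236 CPM in sham mice, which overlapped through 1 mouse of each group (log2 fold change -2.06 ± 0.57, adjusted p = 0.165). In arterioles at 72 h, Cx3cl1 stood at 18.2, 68.6, 101 and 72.1 CPM in CLP mice, against 124, 264, 276 and 110 CPM in sham mice, without overlap, as 1.39% of genes were lower. Its log2 fold change was -1.57 ± 0.80 (adjusted p = 0.288). Ccl5 was irregular in both groups, for instance at 0, 0, 0 and 0 counts in arterioles of CLP mice at 72 h against 959, 0, 130 and 0 counts in sham mice.

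In healthy mice, where the 4 microdissected compartments of the same mice were compared, Cx3cl1 was higher in arterioles than in the mean of the other 3. Scaled over these 16 libraries, its level was 373 ± 155 CPM in arterioles, 141 ± 33 CPM in glomeruli, 134 ± 34.6 CPM in peritubular capillaries and 133 ± 18.3 CPM in venules (SD, n = 4 each). The log2 difference was 1.42 ± 0.47 (adjusted p = 0.0476), 1 of 3 members tested, against 4.93% of the 12179 genes higher in arterioles, and the call was lost without any 1 of the 4 healthy mice and without the filter on low counts (adjusted p up to 0.279). In the same comparison 5 of 10 endothelial markers were higher in arterioles and 2, Emcn and Kdr, were lower, while 4 of 5 smooth muscle markers and 5 of 6 fibroblast markers were higher. Their part in the Cx3cl1 level was not tested. Cxcl12 stood at 165 ± 93.1 CPM in arterioles, 102 ± 34.3 CPM in glomeruli, 81.0 ± 36.5 CPM in peritubular capillaries and 138 ± 14.4 CPM in venules, and neither it nor Ccl5 passed in any compartment (7.32% of genes called in arterioles, 4.18% in glomeruli, 6.13% in peritubular capillaries and 0.591% in venules).

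Other chemokines rose in whole kidney beside the 10 members. Of 28 further chemokine genes listed, 26 were in the table and 15 were tested. At 4 h, 3 of 15 rose, against 1.69% of all genes. They were the interferon-induced Cxcr3 ligands Cxcl10 (log2 fold change 3.83 ± 0.58, adjusted p = 0.000167) and Cxcl9 (2.09 ± 0.42, adjusted p = 0.00263), and Ccl9, a ligand of Ccr1 in mice (2.15 ± 0.47, adjusted p = 0.00856). Cxcl10 stood at 46.9, 20.2, 15.8 and 15.7 CPM in CLP mice, against 2.17, 1.68, 1.49 and 1.52 CPM in sham mice, with its highest level in the same mouse as the inducible members. The median log2 fold change of the 15 genes was 0.32.

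At 24 h, 4 of these 15 chemokines rose, against 3.04% of all genes. Cxcl13, which draws B cells, stood at 6.80, 8.32, 9.84 and 14.7 CPM in CLP mice, against 0.361, 0, 0.303 and 0 CPM in sham mice, with the groups far apart (5.74 ± 0.89, adjusted p = 8.15e-05). Ccl12, a mouse ligand of Ccr2 (3.24 ± 0.88, adjusted p = 0.0229), Ccl9 (1.84 ± 0.48, adjusted p = 0.0177) and Ccl6 (0.98 ± 0.29, adjusted p = 0.0458) also passed, and their calls were lost in 6 of 12, 5 of 14 and 9 of 14 alternatives. At 72 h, when no member passed, 3 of the 15 rose (1.74% of all genes) and 1 fell (2.15%). Those that rose were Cxcl13 (3.87 ± 0.84, adjusted p = 0.00431), Ccl9 (2.24 ± 0.51, adjusted p = 0.00725) and Ccl6 (1.7 ± 0.30, adjusted p = 0.000483). Cxcl9 fell by 1.92 ± 0.50 on the log2 scale (adjusted p = 0.0207). The calls of Cxcl13 and Cxcl9 at 72 h were lost in 1 of 14 and 5 of 14 alternatives. The median log2 fold changes of the 15 genes were 0.47 at 24 h and 0.26 at 72 h.

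Of 23 chemokine receptors listed, 21 were in the table and 10 were tested in whole kidney. Cx3cr1, the receptor of Cx3cl1, was lower at 4 h, at 1.28, 2.26, 2.15 and 2.14 CPM in CLP mice against 5.31, 8.10, 6.93 and 6.15 CPM in sham mice (-1.74 ± 0.23, adjusted p = 1.09e-05). It was higher at 24 h, at 31.0, 32.6, 30.0 and 26.6 CPM against 12.8, 14.7, 19.1 and 14.3 CPM in sham mice (0.98 ± 0.19, adjusted p = 0.000894), and at 72 h, at 42.8, 60.3, 38.6 and 51.2 CPM against 14.4, 15.4, 14.6 and 12.7 CPM (1.76 ± 0.19, adjusted p = 1.51e-07). The groups were apart at all 3 times, and the calls were kept in 14 of 14 alternatives at each time. Cx3cr1 was also lower in the sham mice of 4 h than in healthy mice, with means of 6.62 and 12.5 CPM (-0.91 ± 0.20, adjusted p = 0.015). Between CLP and sham mice the ligand Cx3cl1 did not pass at any of the 3 times, with log2 fold changes of 0.27, -0.27 and -0.02. The median log2 fold changes of the 10 receptors were -0.50 at 4 h, 0.17 at 24 h and 0.79 at 72 h.

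**Figure D5:**
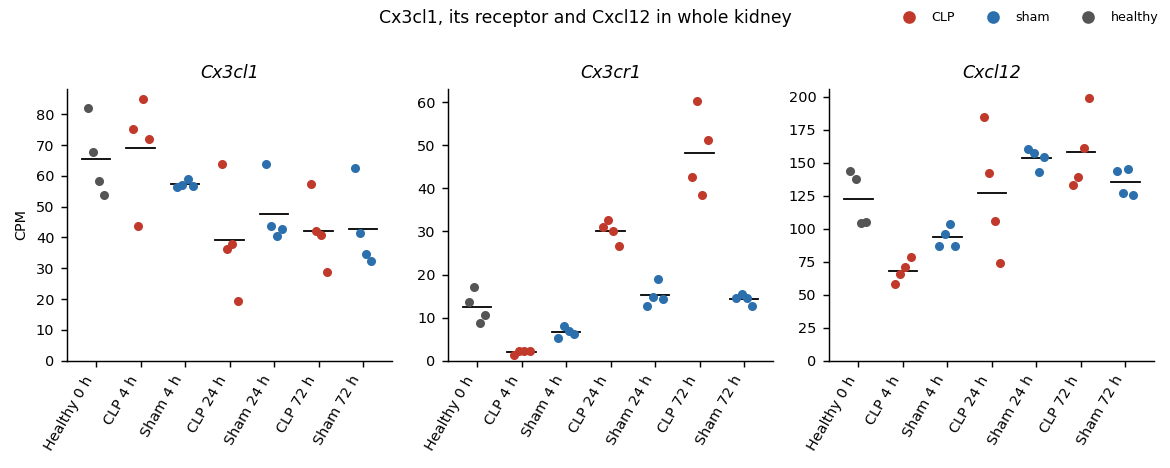
Levels of Cx3cl1, its receptor gene Cx3cr1 and Cxcl12 in whole kidney, in CPM on linear axes, with 1 point for each mouse and black lines at the means of 4 mice (healthy mice at 0 h on the left, then CLP left of sham at 4, 24 and 72 h). Cx3cr1 in CLP mice lies below sham mice at 4 h and above them at 24 and 72 h, while the Cx3cl1 groups overlap at each time.

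The genes whose levels followed 2 of the members most closely were looked up across the 28 whole kidney libraries and 14935 other genes, by Pearson's r of log2 CPM. Closest to Cxcl1 was Cxcl2 (r = 0.941), followed by Mt2, a metallothionein (0.937), Cebpd, a transcription factor of the acute-phase response (0.933), Nfkbia, the inhibitor of NF-kB that NF-kB induces (0.93), and Fosl2, an AP-1 subunit (0.927). Closest to Cxcl12 were Akr1e1 (0.854), Glis2 (0.85), Nqo2 (0.843), Btnl9 (0.841) and Dleu7 (0.838). These libraries share the 7 groups and their depth, so the values describe the libraries and carry no test.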

How the data were processed

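The authors deposited a table of raw counts of 3′ reads per Ensembl gene, whole numbers that they had not normalised, per the file headers and the values. Per the submitters' processing notes, FastQC 0.11.8, MultiQC 1.7, STAR 2.7, SAMtools 1.9, HTSeq 0.13, featureCounts and the builds GRCm38.p6 and GRCm39 were used. The build behind the counts, the counting program and the use of strand are not given in the sources used here. The table lists the 20 libraries of healthy mice at 4 h where the labels give 0 h, and the labels were used. Replicates are separate mice per the labels.

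Counts were analysed in R 4.3.3 with edgeR 4.0.16 (TMM scaling, filterByExpr by group, robust quasi-likelihood F test, two-sided), fitting the 28 libraries of each compartment together. Benjamini-Hochberg adjustment covered all genes tested, with a threshold of 0.05. Each SE of a log2 fold change was derived from the test, as its absolute value divided by the square root of the F statistic. CPM are counts scaled to a TMM-adjusted library total of 1 M (mega). Compartments of healthy mice, and the interaction of CLP with compartment, were fitted with the mouse as a block. The sum over the 4 microdissected compartments of a mouse was added after the data were seen. A fold against a group without counts uses a floor of 3 counts per library. Intervals and floors cover counting error only, as duplicate reads of 1 molecule were not told apart. Positions came from GENCODE M21, which held 34185 of the 34255 gene identifiers. The test was checked on simulated data: of 100 genes changed 4-fold and 100 changed 16-fold at 4 h, 92 and 98 were recovered in whole kidney (14650 genes, 10 unchanged genes called), and 6 and 25 in glomeruli (14287 genes, 1 unchanged gene called). The changed genes lay above a set mean count and were raised or lowered, so the shares are not the power for the members.

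Alternatives were DESeq2 1.42.0, its size factors in edgeR, no filter on low counts, the groups of a time or of neighbouring times fitted alone, the replicate number as a block, and leaving out each mouse in turn. All 10 members are named, as are other chemokines and receptors that passed in a CLP comparison, except 1 result of the receptor list that is not reported here, and the 5 genes most like Cxcl1 and Cxcl12. The members and gene lists were chosen with earlier results of these data known.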

Additional observations from a re-analysis of the deposited data

Results flagged for a closer look

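Of 98 groups of 4 libraries examined, 12 held a mouse whose gap to its nearest neighbour exceeded Dixon's critical share of the group's range, and chance gives about 5% of groups, or 1 in 20. In whole kidney, CLP replicate 1 of 4 h stood above the others for Cxcl2 (58.4 CPM), Cxcl5 (10.4 CPM) and Ccl4 (14.9 CPM), and it did so in glomeruli for Cxcl1 (515 CPM). CLP replicate 3 of 24 h was high for Cxcl2 in whole kidney (1.67 CPM). CLP replicate 3 of 4 h was high for Cx3cl1 in glomeruli (333.6 CPM), and CLP replicate 1 of 24 h for Ccl5 in venules (52.5 CPM).

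In sham mice of whole kidney, Cx3cl1 was flagged in replicate 3 of 4 h (58.9 CPM), though the nearest mouse stood at 56.9 CPM and the flag reflects a narrow group. It was high in replicate 1 of 24 h (63.9 CPM, nearest 43.6 CPM), and Ccl5 was high in replicate 2 of 24 h (7.29 CPM, nearest 3.53 CPM). In venules, Cxcl12 was low in sham replicate 1 of 24 h (179.1 CPM). In arterioles of healthy mice, Cx3cl1 was high in replicate 2 (560.4 CPM).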

How the results depend on the processing

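Counts of called members were compared for 35 comparisons under 411 alternatives, of which 368 kept the count within 1.5 times, 43 did not, and none turned a direction. Most of these comparisons had 0 members called, and a 0 that stayed at 0 counts as kept. Where members were called, whole kidney kept the count in 14 of 14 alternatives at 4 h and 9 of 14 at 24 h. The microdissected sum kept it in 6, 9 and 5 of 11 at 4, 24 and 72 h, and arterioles of healthy mice in 2 of 7. With DESeq2, in place of 0, the count was 3, 5 and 3 in glomeruli at 4, 24 and 72 h, 1, 2 and 1 in venules, 1 at both 24 and 72 h in arterioles, and 1 in whole kidney at 72 h. Without the filter on low counts it was 2, 2 and 1 in glomeruli, 2 in the microdissected sum at 24 h and 2 at 72 h, 1 for the CLP effect at 72 h against 4 h, and 0 for arterioles of healthy mice. In glomeruli at 4 h it was 2 with the 8 libraries alone and 2 with the 12 libraries of healthy mice and 4 h. In whole kidney at 24 h it was 3 with the 16 libraries of 24 and 72 h, in place of 6.

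Leaving out 1 mouse gave 6 members in whole kidney at 4 h each time (5 with the 8 libraries alone), 2 to 5 at 24 h, 0 to 3 in glomeruli at 24 h, 0 to 1, 1 to 2 and 0 to 1 in the microdissected sum at 4, 24 and 72 h, 0 to 1 for sham against healthy whole kidney at 72 h, and 0 to 0 for arterioles of healthy mice. Whole kidney at 24 h came to 2 without sham replicates 2 or 4 and to 3 without CLP replicate 2 or sham replicate 3, and glomeruli at 24 h to 3 without CLP replicate 1. For the counts that left out mice, fewer samples stood in the fit, and otherwise the cause was not tested.

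Replicate numbers belong to different mice. Same-numbered CLP and sham mice had whole kidney residuals that correlated above 0.1 in 0 of 4 pairs at 4 h, in 3 pairs at 24 h (highest 0.468) and in 2 pairs at 72 h (highest 0.347). With the replicate block, 1 member was called in sham against healthy whole kidney at 72 h, Cx3cl1 (adjusted p = 0.0274), and Cxcl2 was called at 24 h (adjusted p = 0.0317).

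The microdissected values are limited by control libraries that held few or no counts of the inducible members. In each microdissected compartment the median library total was not lower in the 24 and 72 h libraries than in the healthy and 4 h ones. The cause of the few counts was not tested. Folds against groups with few or no counts were also computed without each mouse in turn, an alternative chosen after seeing the data.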
